A study of Mus musculus with 18 samples.

Results

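The 9 genes of the thyroid hormone axis were described across 18 arrays of the mouse vestibular organ, the part of the inner ear that senses balance. They are 9 listed symbols among the 19938 genes measured, and the rule that lists them names no measured value: thyroglobulin (Tg), the thyrotropin receptor (Tshr), the transporter Slco1c1, the deiodinases Dio2 and Dio3, the receptors Thra and Thrb, and the hormone-responsive regulators Klf9 and Hr. Each of the 9 had 1 probe set with a single gene symbol.

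Thyroid hormone leaves the thyroid mostly as thyroxine, which is built on thyroglobulin under the control of thyrotropin. In a target tissue, membrane transporters carry it in, the deiodinase encoded by Dio2 turns it into the active triiodothyronine, and the one encoded by Dio3 inactivates both forms. The active hormone binds the nuclear receptors encoded by Thra and Thrb, which set the transcription of target genes such as Klf9 and Hr. In the inner ear the hormone is known for timing the maturation of the cochlea around the onset of hearing, and Thrb, Dio2 and Dio3 are all needed there.

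The mice were Igf1 -/- (null for insulin-like growth factor 1) or Igf1 +/+ (wild type), both of a hybrid Mf1 with 129/sv background, at embryonic stage E18.5 and on postnatal days 15 and 90 (P15 and P90). Each genotype had 3 arrays at each age, which made 6 groups. All mice had been fixed by perfusion of 4% paraformaldehyde before dissection, and 100 ng of total RNA was amplified, labelled and hybridised to an Affymetrix Mouse Gene 1.1 ST array per sample. The labels name each array a biological replicate without saying how many animals it holds, and they name neither the exons removed nor the sex.

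Values below are quantile-normalised log units, and a step of 1 stands for 2.72-fold in base e or 2-fold in base 2, since the labels do not settle the base. A change is the difference of group means ± its standard error in the limma fit, and a gene was called where the p adjusted by Benjamini-Hochberg over the 19938 genes was under 0.05. In these whole-tissue samples fewer cells of a type and less RNA per cell cannot be told apart. The files give no detection call. As a guide, the brightest of 3 Y-linked genes in the array with the least Y-linked signal read 2.18, and 5.12% of genes lay below that in every group.

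The arrays held more than vestibular epithelium, and marker lists moved with age and with genotype. The mean of 14 vestibular organ markers ran from 5.02 to 5.40 over the E18.5 arrays, from 4.11 to 4.38 at P15, and at P90 from 4.28 to 4.62 in null and from 3.93 to 4.05 in wild type. The mean of 8 granule neuron and astrocyte markers ran from 4.06 to 4.57 at E18.5, from 7.10 to 7.26 at P15 and from 6.85 to 7.17 at P90. The mean of 7 B cell markers ran from 2.92 to 3.16 at E18.5, from 5.33 to 6.06 at P15 and from 3.54 to 4.64 at P90. The mean of 11 skeletal muscle markers ran from 6.63 to 7.15 in null and from 5.84 to 6.32 in wild type at E18.5, where 4 were called higher in null. At P15 it ran from 5.71 to 6.13 in null and from 6.42 to 6.63 in wild type, and none was called. The part of muscle in the genotype differences of the 9 genes was not tested. At E18.5 Igf1 itself read 6.60 ± 0.25 in null mice and 7.03 ± 0.04 in wild-type mice (SD, n = 3), 5.55 ± 0.14 and 5.96 ± 0.13 at P15, and 5.42 ± 0.10 and 5.52 ± 0.12 at P90. None of these Igf1 differences was called. The labels do not say where its probes lie relative to the deletion, and the gene therefore checks no label. 4 arrays (E18.5 null 2 and 3, P90 wild type 1 and 2) stood highest on the third principal component, from 13.5 to 18.8. P15 wild type 1 came next, at 9.92. Leaving out these 4 leaves 1 E18.5 null array and 1 P90 wild-type array. For the 9 genes a call that is lost without these 4 arrays is given with both values.

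The start-site windows of 5 of the 9 genes could be read from RefSeq (GRCm38.p6), each 300 bases long, from 250 bases before the annotated start to 50 after it. Those of the transporter, the deiodinases, Klf9 and 1 of 2 windows of Thrb are shown because these genes carry the changes with age described below. They are printed 5′ to 3′ on the gene's strand, and capitals mark matches to the motifs searched on both strands.
Klf9, chr19:23140976-23141275, plus strand: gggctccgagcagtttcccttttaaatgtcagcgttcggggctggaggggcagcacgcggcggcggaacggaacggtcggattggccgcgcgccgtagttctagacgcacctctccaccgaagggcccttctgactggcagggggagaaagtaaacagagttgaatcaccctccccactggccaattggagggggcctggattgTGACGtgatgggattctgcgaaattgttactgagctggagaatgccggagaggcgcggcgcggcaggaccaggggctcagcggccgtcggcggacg
Slco1c1, chr6:141524104-141524403, plus strand: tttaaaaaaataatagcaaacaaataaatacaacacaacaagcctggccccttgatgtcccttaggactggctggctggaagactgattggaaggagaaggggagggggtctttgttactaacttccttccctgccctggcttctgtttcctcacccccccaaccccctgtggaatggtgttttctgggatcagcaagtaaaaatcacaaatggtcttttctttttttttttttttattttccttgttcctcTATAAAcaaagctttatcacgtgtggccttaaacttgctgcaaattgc
Dio2, chr12:90738989-90739288, minus strand: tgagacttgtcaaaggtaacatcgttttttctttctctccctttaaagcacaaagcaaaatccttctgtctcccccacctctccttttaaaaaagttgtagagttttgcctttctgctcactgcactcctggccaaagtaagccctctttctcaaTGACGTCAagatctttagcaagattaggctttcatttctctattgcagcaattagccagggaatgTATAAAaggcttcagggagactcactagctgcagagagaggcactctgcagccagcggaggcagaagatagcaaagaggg
Dio3, chr12:110278980-110279279, plus strand: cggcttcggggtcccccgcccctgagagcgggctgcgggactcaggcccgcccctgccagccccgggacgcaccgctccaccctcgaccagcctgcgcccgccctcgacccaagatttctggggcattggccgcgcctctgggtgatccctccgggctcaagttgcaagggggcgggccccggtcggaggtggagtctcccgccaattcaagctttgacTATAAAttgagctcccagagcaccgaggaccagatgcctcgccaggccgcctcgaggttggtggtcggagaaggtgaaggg
Thrb, chr14:17660710-17661009, plus strand: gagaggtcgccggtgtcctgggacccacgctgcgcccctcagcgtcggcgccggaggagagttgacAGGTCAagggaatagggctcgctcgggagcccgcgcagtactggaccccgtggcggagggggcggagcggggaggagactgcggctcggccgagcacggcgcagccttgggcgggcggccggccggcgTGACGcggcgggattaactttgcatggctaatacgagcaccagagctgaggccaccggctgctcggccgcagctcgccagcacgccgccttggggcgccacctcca

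The thyroid hormone receptor half-site AGGTCA, present in 16.3% of all 32851 windows of this length, occurred in 1 of the 6 windows of these genes, that of Thrb printed above, at -184 to -179 from the start. The direct repeat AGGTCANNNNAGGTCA occurred in 0.0152% of all windows and in none of the 6. The cAMP response element TGACGTCA, in 1.79% of windows, occurred in Dio2 at -95 to -88. Its core TGACG, which lies within it and occurs in 20.8% of windows, was also found in Thrb at -56 to -52 and in Klf9 at -46 to -42. A TATA box (TATAAA, 13.6% of windows) stood at -30 to -25 in Dio2 and at -31 to -26 in Dio3, the usual distance before a start. In Slco1c1 the same letters stood at +3 to +8, after the annotated start, and in the second Thrb window, not printed, at -167 to -162, so that 4 of the 6 windows held them. These matches describe letters in the windows and show no binding.

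Between E18.5 and P15 7 of the 9 genes were called in each genotype, beside 41.5% (wild type) and 40.8% (null) of all genes. In wild type Slco1c1, Klf9, Hr, Tg and Dio2 were called higher at P15 and Dio3 and Thrb lower. In null mice the same 5 were called higher, with Dio3 and Tshr lower. The background was high in each direction. In wild type 19.7% of all genes were called higher and 21.9% lower, and in null 20.3% and 20.5%. The arrays of E18.5 and P15 did not overlap for 8 of the 9 genes in wild type, against 57.7% of all genes, and for 6 in null, against 51%. The median difference of the 9 genes was 0.39 in wild type and 0.48 in null, beside -0.05 and -0.04 for all genes. With the values as deposited, which were not on a common scale, the counts were 5 higher and 0 lower in wild type and 6 and 0 in null. The share of higher calls among all called genes was then 71.5% and 85.1%, so the falls are read relative to the other genes. The plot of each gene in each array shows both the common steps and the spread.

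**Figure D1:**
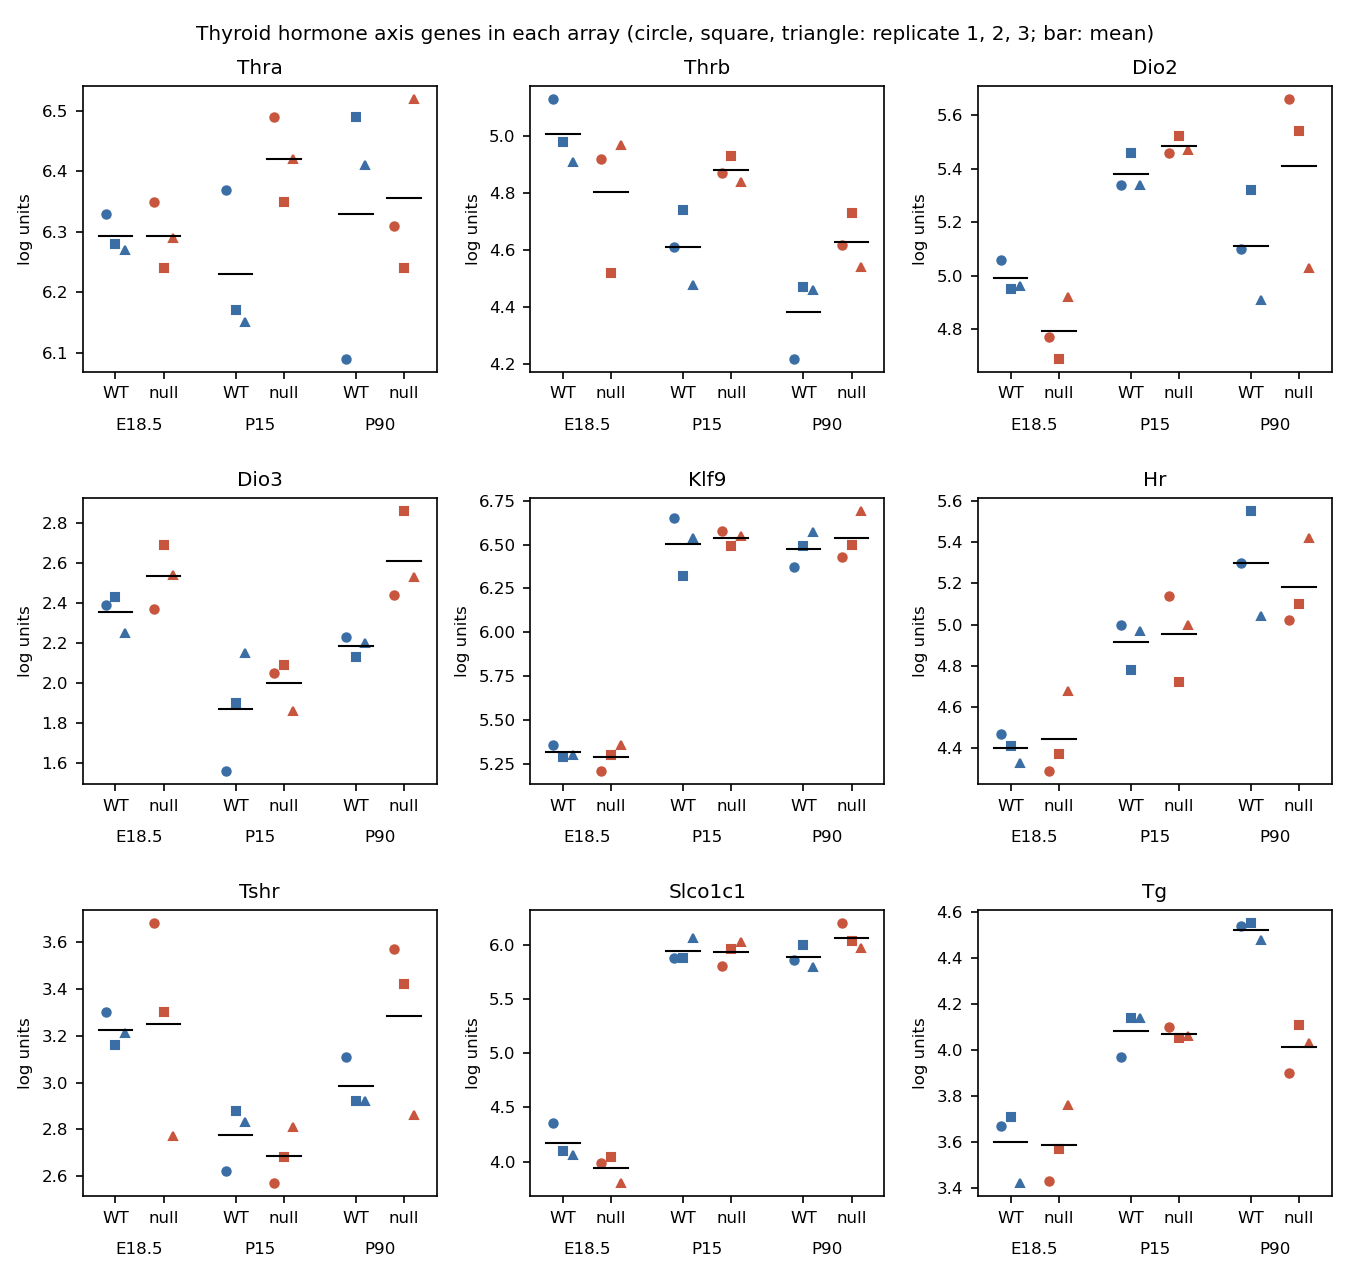
Each panel plots 1 gene of the thyroid hormone axis, with the quantile-normalised value of each array (log units) on the vertical axis and the 6 groups on the horizontal axis; circle, square and triangle are replicates 1, 2 and 3 and the bar is the group mean. Klf9 and Slco1c1 step up between E18.5 and P15 in both genotypes, and Tg is highest in the 3 P90 wild-type arrays (4.48 to 4.55).

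Slco1c1 (gene ID 58807, GRCm38.p6 chr6:141524354-141570177) encodes a thyroxine transporter known from brain capillaries and choroid plexus, and it had the largest difference of the 9 genes between E18.5 and P15. At E18.5 it read 4.36, 4.10 and 4.06 in wild type and 3.99, 4.04 and 3.80 in null. At P15 it read 5.88, 5.88 and 6.07 in wild type and 5.81, 5.96 and 6.03 in null. Every P15 array lay above every E18.5 array. The rise was 1.77 ± 0.10 in wild type (adjusted p = 3.7e-09), which is 5.87-fold with base e or 3.41-fold with base 2. In null it was 1.99 ± 0.10 (adjusted p = 1.6e-09). By size these were the 480th and 330th largest rises of the 19938 genes. At P90 it stayed near 6, at 5.86, 6 and 5.80 in wild type and 6.20, 6.04 and 5.97 in null, and neither change from P15 was called.

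Marker genes of brain tissue, astrocytes and brain vessels among them, moved over the same interval. All 8 granule neuron and astrocyte markers rose in both genotypes, with medians of 2.61 in wild type and 2.42 in null. Of 10 choroid plexus and brain endothelium markers, 8 rose and 1 fell in wild type, and 4 rose and 1 fell in null. The list mean of the latter ran from 4.62 to 4.84 at E18.5, from 5.39 to 5.68 in P15 wild type and from 5.06 to 5.20 in P15 null. Transthyretin (Ttr), the choroid plexus carrier of thyroxine in that list, read 8.12 ± 0.32 in P15 wild type and 5.67 ± 0.73 in P15 null (SD, n = 3), whereas Slco1c1 read 5.94 ± 0.11 and 5.93 ± 0.11. The part of these cells in the rise of Slco1c1 was not tested.

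Dio2 (gene ID 13371, chr12:90724552-90739038), the activating deiodinase, rose from E18.5 to P15. At E18.5 it read 5.06, 4.95 and 4.96 in wild type and 4.77, 4.69 and 4.92 in null. At P15 it read 5.34, 5.46 and 5.34 in wild type and 5.46, 5.52 and 5.47 in null. The arrays of the 2 ages did not overlap in either genotype. The rise was 0.39 ± 0.13 in wild type (adjusted p = 0.030) and 0.69 ± 0.13 in null (adjusted p = 7.3e-04). In wild type the call was lost when 1 of 5 of the 6 arrays compared was left out (E18.5 wild type 2 or 3, or P15 wild type 1, 2 or 3), with differences from 0.35 to 0.41 and adjusted p from 0.053 to 0.09. The difference between the genotypes in this change was 0.30 ± 0.19 and was not called (adjusted p = 0.68).

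Dio3 (gene ID 107585, chr12:110279230-110281097), the inactivating deiodinase, is known for guarding fetal tissue from the hormone, and it was lower at P15 than at E18.5 in both genotypes. At E18.5 it read 2.39, 2.43 and 2.25 in wild type and 2.37, 2.69 and 2.54 in null. At P15 it read 1.56, 1.90 and 2.15 in wild type and 2.05, 2.09 and 1.86 in null, all below the guide of 2.18. The fall was -0.48 ± 0.14 in wild type (adjusted p = 0.011) and -0.53 ± 0.14 in null (adjusted p = 0.0061). In wild type it was not called without P15 wild type 1, at -0.33 with an adjusted p of 0.066. In null it was -0.37 and was not called once the 4 arrays named above were left out, which leaves 1 E18.5 null array. As deposited, the differences were -0.42 and -0.26 and neither was called. Dio3 lies in the imprinted Dlk1-Dio3 region, and Dlk1, Rtl1 and Meg3 there were also called lower at P15 in both genotypes. In wild type the differences were -2.92 ± 0.24 for Dlk1, -1.39 ± 0.13 for Rtl1 and -0.71 for Meg3. In null they were -2.65, -1.79 and -0.58. The null call of Meg3 was lost with a term for the 4 arrays in the limma fit (-0.48, adjusted p = 0.073).

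By P90 Dio3 had risen again in null mice, to 2.44, 2.86 and 2.53, while wild type read 2.23, 2.13 and 2.2. The rise from P15 was 0.61 ± 0.14 in null (adjusted p = 0.010) and the wild-type difference of 0.32 ± 0.14 was not called (adjusted p = 0.13). All 3 P15 null arrays lay below the guide of 2.18, so the size of this difference carries more doubt, and Dio3 is not among the genes tested when dim genes are left out. Without P15 null 3 the null difference was 0.53 with an adjusted p of 0.055. The difference between the genotypes in this change, 0.29 ± 0.20, was not called (adjusted p = 0.80).

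Thra (gene ID 21833, chr11:98740776-98769006), the more widely expressed receptor gene, ran from 6.09 to 6.52 over the 18 arrays and was called in none of the 9 comparisons. Its 6 group means lay between 6.23 and 6.42, and every group overlapped its neighbour in that order. The 95% interval of its wild-type change from E18.5 to P15 was -0.28 to 0.16. As deposited, its null change was 0.45 and was called (adjusted p = 0.045). Its last part overlaps Nr1d1 (chr11:98767932-98775377), a circadian repressor on the opposite strand, which rose by 2.04 ± 0.22 in wild type over the same interval.

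Thrb (gene ID 21834, chr14:17659225-18040097), the receptor gene tied to hearing, was called lower at P15 in wild type and was not called in null. At E18.5 it read 5.13, 4.98 and 4.91 in wild type and 4.92, 4.52 and 4.97 in null. At P15 it read 4.61, 4.74 and 4.48 in wild type and 4.87, 4.93 and 4.84 in null. The wild-type arrays of the 2 ages did not overlap and the null arrays did. The change was -0.39 ± 0.12 in wild type (adjusted p = 0.012) and 0.08 ± 0.12 in null (adjusted p = 0.63). The test of the difference gave 0.47 ± 0.16, with an unadjusted p of 0.011 and an adjusted p of 0.42, so a genotype difference in the change was not called. The wild-type fall was not called without E18.5 wild type 1 (adjusted p = 0.057), without P15 wild type 3 (adjusted p = 0.06) or as deposited (-0.19, adjusted p = 0.41).

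Of the hormone-responsive regulators, Klf9 had the larger difference. Klf9 (gene ID 16601, chr19:23141226-23168129) encodes a zinc finger factor induced directly by thyroid hormone in brain, and also by glucocorticoid. At E18.5 it read 5.36, 5.29 and 5.30 in wild type and 5.21, 5.30 and 5.36 in null. At P15 it read 6.65, 6.32 and 6.54 in wild type and 6.58, 6.49 and 6.55 in null. The ages were separated by nearly 1 unit, and the genotypes overlapped at each. The rise was 1.19 ± 0.09 in wild type (adjusted p = 5.3e-08), 3.28-fold with base e or 2.28-fold with base 2. In null it was 1.25 ± 0.09 (adjusted p = 3.7e-08). At P90 it read 6.37, 6.49 and 6.57 in wild type and 6.43, 6.5 and 6.69 in null. The changes after P15 were -0.03 ± 0.09 and 0.00 ± 0.09. The calls of Klf9 and Slco1c1 between E18.5 and P15 were kept in every alternative run. Over the same ages all 8 granule neuron and astrocyte markers rose in both genotypes. The part of these cells, or of the hormone, in the rises of Klf9 and Hr was not tested.

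Hr (gene ID 15460, chr14:70554056-70573548) encodes a corepressor known as a direct hormone target in the developing brain. In wild type it read 4.47, 4.41 and 4.33 at E18.5 and 5, 4.78 and 4.97 at P15. In null it read 4.29, 4.37 and 4.68 at E18.5 and 5.14, 4.72 and 5 at P15. The ages did not overlap in either genotype. The rise was 0.51 ± 0.15 in each genotype (adjusted p = 0.011 in wild type and 0.012 in null). Without P15 null 1 the null rise was 0.41 with an adjusted p of 0.06. At P90 Hr read 5.30, 5.55 and 5.04 in wild type and 5.02, 5.10 and 5.42 in null, and neither change from P15 was called. The wild-type difference was 0.38 ± 0.15 (adjusted p = 0.085).

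Tg and Tshr are best known from the thyroid gland, and their levels here were low to middling. Tshr (gene ID 22095, chr12:91400993-91540509) read 3.30, 3.16 and 3.21 in the E18.5 wild-type arrays and 2.62, 2.88 and 2.83 in those of P15. In null it read 3.68, 3.30 and 2.77 at E18.5 and 2.57, 2.68 and 2.81 at P15, so the E18.5 null arrays spread widely and overlapped those of P15. The change was -0.45 ± 0.19 in wild type (adjusted p = 0.079) and -0.57 ± 0.19 in null (adjusted p = 0.030). The null call was lost without E18.5 null 1 (-0.35, adjusted p = 0.15), without E18.5 null 2, P15 null 1 or P15 null 2 (adjusted p from 0.067 to 0.095), as deposited, and with only the groups compared (adjusted p = 0.09). The wild-type difference was called with median scaling (-0.63, adjusted p = 0.0062) and with only the groups compared (-0.45, adjusted p = 0.0071). At P90 it read 3.11, 2.92 and 2.92 in wild type and 3.57, 3.42 and 2.86 in null.

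Tg (gene ID 21819, chr15:66670754-66850721) encodes the protein on which the hormone is made. At E18.5 it read 3.67, 3.71 and 3.42 in wild type and 3.43, 3.57 and 3.76 in null. At P15 it read 3.97, 4.14 and 4.14 in wild type and 4.10, 4.05 and 4.06 in null. The rise was 0.49 ± 0.10 in wild type (adjusted p = 7.5e-04) and 0.48 ± 0.10 in null (adjusted p = 8.9e-04). Sla, an adaptor gene of lymphocytes, lies within the Tg interval (chr15:66780819-66831829) and rose by 2.34 ± 0.12 in wild type and 2.66 ± 0.12 in null over the same ages. All 7 B cell markers rose as well in both genotypes. Their part in the rise of Tg was not tested.

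**Figure D2:**
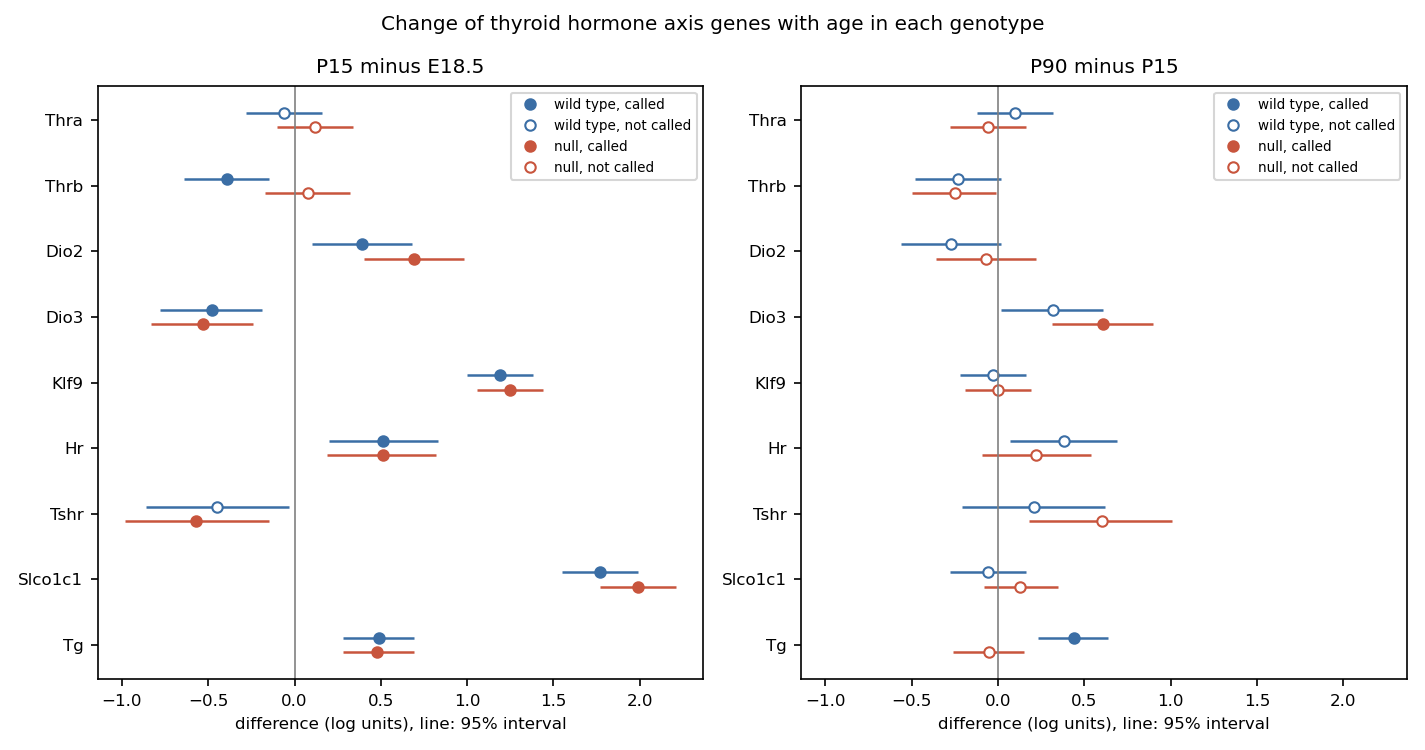
Points are the difference between ages (log units, horizontal axis) for each gene (vertical axis) in wild type and null, from E18.5 to P15 in the left panel and from P15 to P90 in the right; lines are 95% intervals and filled points were called. Slco1c1 and Klf9 stand to the right of the other genes in the left panel, and in the right panel the filled points are Tg in wild type and Dio3 in null.

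From P15 to P90, 1 of the 9 genes was called in each genotype, a share near that of all genes: Tg in wild type, beside 17.9% of all genes, and Dio3 in null, beside 13%. The arrays of the ages did not overlap for 5 of the 9 genes in wild type and 3 in null, against 34% and 31.8% of all genes. Tshr in null differed by 0.60 ± 0.19 with no overlap and was not called (adjusted p = 0.057). It was called with median scaling, as deposited, with a term for the 4 arrays and without P90 null 3 (adjusted p from 8.5e-04 to 0.046). Tg rose by 0.44 ± 0.10 in wild type (adjusted p = 0.008), to 4.54, 4.55 and 4.48, whereas null read 3.90, 4.11 and 4.03, a difference of -0.05 ± 0.10 from P15. The test of the difference between the genotypes was -0.49 ± 0.14 (unadjusted p = 0.0026, adjusted p = 0.64) and was not called. The wild-type rise of Tg was not called without the 4 arrays (0.40), which leaves 1 P90 wild-type array. It was also not called with a term for them (0.34, adjusted p = 0.094) or with a sex score (0.36, adjusted p = 0.11). Xist in wild type read 7.48, 5.34 and 7.48 at P15 and 3.33, 2.87 and 1.86 at P90, and its part in the rise was not tested beyond that score. With arrays scaled by their medians, 6 of the 9 genes were called in wild type, when 7770 of all genes were called in place of 3561. They were Tg, Dio3 and Tshr higher and Dio2, Klf9 and Slco1c1 lower.

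Between the genotypes, Tg at P90 was the only call among the 9 genes. None was called at E18.5, where 0.0802% of all genes were, and none at P15, where 0.015% were. At P90 1 of 9 was called, beside 0.296% of all genes. At an unadjusted p under 0.05 there was 1 gene of the 9 at E18.5 (Slco1c1), 1 at P15 (Thrb) and 4 at P90 (Tg, Dio3, Dio2 and Thrb). The shares of all genes at that level were 12.5%, 6.97% and 11.1%. Arrays of the genotypes did not overlap for 2 of the 9 genes at E18.5, 2 at P15 and 3 at P90 (Tg, Dio3 and Thrb), against 19.7%, 16.5% and 10.5% of all genes. The median difference of the 9 genes at P90 was 0.18, beside 0.01 for all genes.

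**Figure D3:**
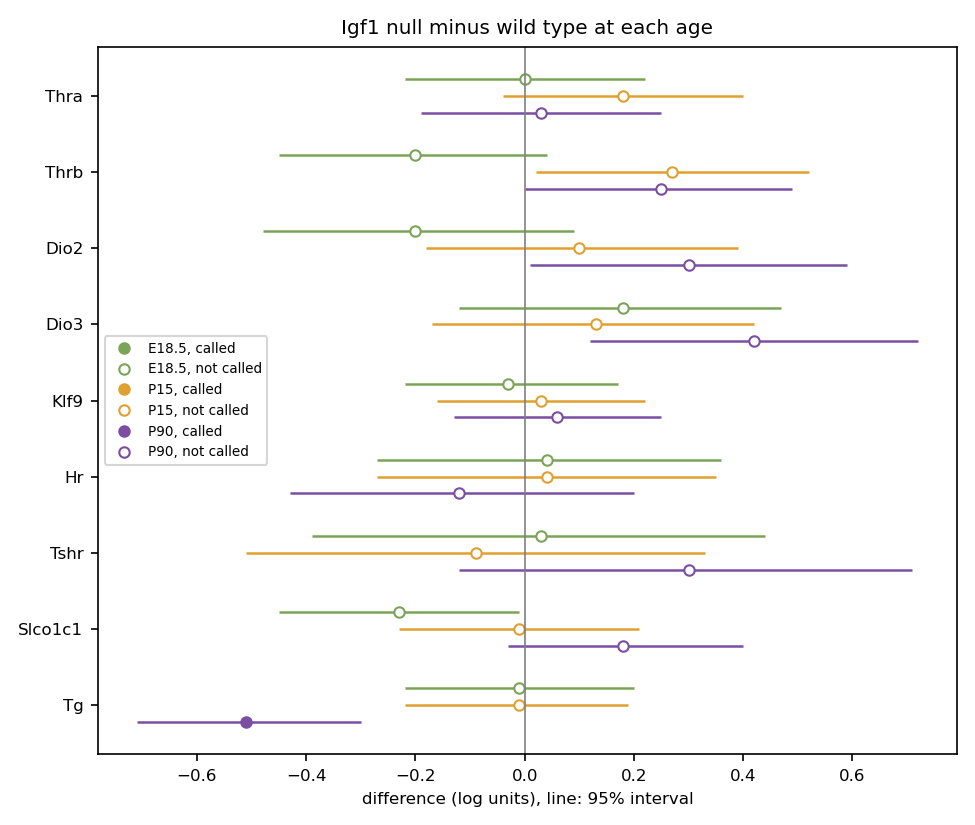
Points are Igf1 null minus wild type (log units, horizontal axis) for each gene (vertical axis) at E18.5, P15 and P90; lines are 95% intervals and the filled point was called. Tg at P90, at -0.51, is the only filled point, and the intervals of Klf9 stay within -0.22 and 0.25 at the 3 ages.

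The P90 arrays of Tg did not overlap between the genotypes, from 3.90 to 4.11 in null and from 4.48 to 4.55 in wild type. The difference was -0.51 ± 0.10 (95% interval -0.71 to -0.30, adjusted p = 0.038), lower in null by 1.66-fold with base e or 1.42-fold with base 2. It was the 219th lowest difference of all genes. At E18.5 and P15 it was -0.01 ± 0.10 at each age. The P90 call is close to the threshold: without null 1, null 2, wild type 1 or wild type 2 in turn the adjusted p was 0.17, 0.07, 0.12 and 0.16. With the replicate block it was 0.065. Without the 4 arrays, which leaves 1 P90 wild-type array, the difference was -0.46 and was not called.

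Other measures differed between the same P90 groups. Of 14 vestibular organ markers 13 had a positive difference and 2 were called higher in null, Otogl (0.91 ± 0.15) and Ocm (0.73 ± 0.15), and the list mean ran from 4.28 to 4.62 in null and from 3.93 to 4.05 in wild type. Xist, the RNA of the inactive X chromosome, read 7.91, 7.43 and 7.42 in the P90 null arrays and 3.33, 2.87 and 1.86 in wild type. The mean of 3 Y-linked genes read 2.00, 5.44 and 5.49 in null and 6.12, 6.12 and 6.32 in wild type. Every P90 null array was above every P90 wild-type array for Xist and below it for the Y-linked mean. P90 null 2 and 3 read high for both, so they held RNA of both sexes. The E18.5 arrays did too, with Xist from 7.31 to 8.01 and the Y-linked mean from 5.23 to 5.95. With a sex score in the fit the Tg difference was -0.39 ± 0.16 with an adjusted p of 0.98. Of 7 B cell markers 4 were lower in null, among them Pax5 by -0.94 and Cd79b by -0.93, and the list mean ran from 3.54 to 3.98 in null and from 4.57 to 4.64 in wild type. Sla overlapped between the genotypes, at 5.92, 5.93 and 6.03 in null and 6.06, 5.83 and 6.08 in wild type (-0.03 ± 0.12, adjusted p = 0.94). Their part in the Tg difference was not tested.

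The other thyroid follicle genes did not pass the test at P90. Of 8 measured thyroid follicle markers Tg alone was called, and the list mean ran from 3.43 to 3.51 in null and from 3.38 to 3.63 in wild type. The iodide transporter Slc5a5 read 4.05 ± 0.16 in null and 4.23 ± 0.27 in wild type (SD, n = 3). Pax8, a thyroid transcription factor, read 3.53 ± 0.13 and 3.65 ± 0.22. Duox2, which makes the peroxide for hormone synthesis, read 2.69 ± 0.10 and 2.54 ± 0.24.

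**Figure D4:**
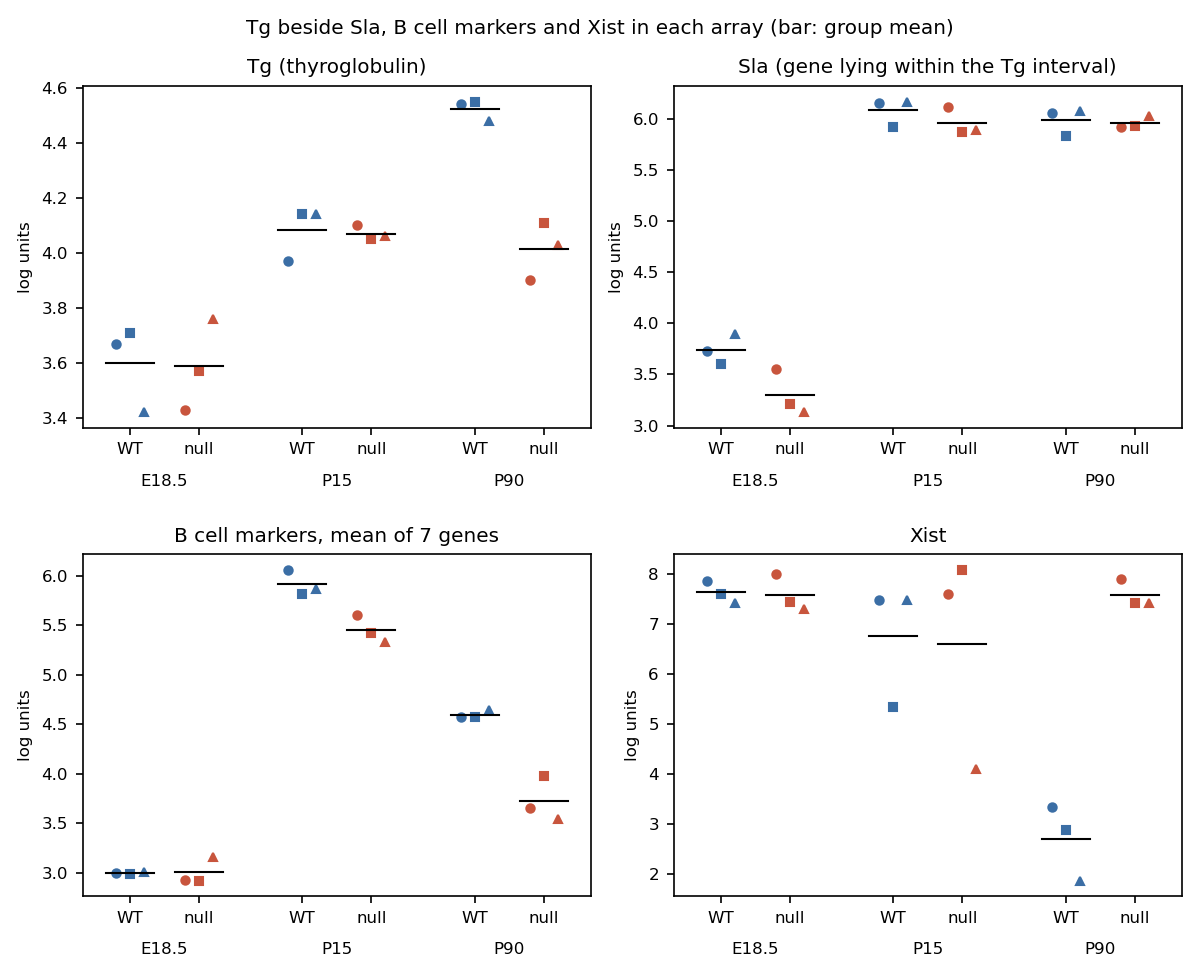
Values in each array (log units) for Tg, for Sla, whose gene lies within the Tg interval, for the mean of 7 B cell markers and for Xist, by group; circle, square and triangle are replicates 1, 2 and 3 and the bar is the group mean. At P90 the null arrays lie below wild type for Tg and the B cell markers and above it for Xist, and those of Sla overlap.

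For the other genes the genotypes were not separated by the test. Dio3 at P90 differed by 0.42 ± 0.14 (unadjusted p = 0.0087, adjusted p = 0.28), with no overlap between the arrays. Dio2 at P90 read 5.66, 5.54 and 5.03 in null and 5.10, 5.32 and 4.91 in wild type, a difference of 0.30 ± 0.13 (adjusted p = 0.43). Without P90 null 3, the lowest of its group, it was 0.49 ± 0.11 and was called (adjusted p = 0.047). At P90 Thrb read 4.62, 4.73 and 4.54 in null and 4.22, 4.47 and 4.46 in wild type, 0.25 ± 0.12 with an adjusted p of 0.45. At P15 Thrb was also higher in every null array, by 0.27 ± 0.12 (adjusted p = 0.66). Slco1c1 at E18.5 was lower in every null array, by -0.23 ± 0.10 (adjusted p = 0.38). For Klf9 the 95% intervals were -0.22 to 0.17 at E18.5, -0.16 to 0.22 at P15 and -0.13 to 0.25 at P90. For Hr they were wider, from -0.43 to 0.20 at P90.

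The direct tests of whether the genotypes changed differently with age called none of the 9 genes in either interval. The background was 0.145% of all genes for E18.5 to P15 and 0.015% for P15 to P90. At an unadjusted p under 0.05, limma gave Thrb in the first interval and Tg in the second, beside 8.51% and 6.43% of all genes.

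The wider pathway was read from 5 lists of other genes, chosen with earlier results known, and its counts stand beside the 41.5% (wild type) and 40.8% (null) of all genes called between E18.5 and P15. Of 9 membrane transporters measured, 6 rose and 2 fell in wild type, and 5 rose and 2 fell in null. Slc7a8, an amino acid exchanger that also carries the hormone, rose by 0.80 ± 0.10 in wild type and 0.72 ± 0.10 in null. Slco1a4, of the blood-brain barrier, rose by 0.95 ± 0.13 and 1.26 ± 0.13. Slc16a10, an aromatic amino acid and hormone transporter, rose by 0.81 ± 0.13 in wild type and 0.58 ± 0.13 in null. Without the 4 arrays, which leaves 1 E18.5 null array, the null difference was 0.43 and was not called. Slco1a5 changed by -0.93 ± 0.13 and -0.64 ± 0.13.

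Of 9 measured partners of the deiodinases, binding proteins and clearance enzymes, 2 rose and 3 fell in wild type, and 1 rose and 2 fell in null. Crym, which encodes a cytosolic binder of the active hormone, changed by -1.99 ± 0.14 in wild type and -1.88 ± 0.14 in null. Sephs2, of selenoprotein synthesis, on which deiodinases depend, rose by 0.62 ± 0.09 and 0.42 ± 0.09, while Eefsec, the elongation factor for selenocysteine, changed by -0.39 ± 0.08 and -0.34 ± 0.08. Albumin (Alb) changed by -1.11 ± 0.17 in wild type, and the null difference of -0.26 ± 0.17 was not called.

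Of 13 receptor partners and coregulators, 3 rose and 5 fell in wild type, and 3 rose and 6 fell in null. Rxra and Rxrg, which pair with the receptors on DNA, changed by -0.89 ± 0.10 and -1.08 ± 0.15 in wild type and by -0.68 ± 0.10 and -1.28 ± 0.15 in null. Nr2f2, an orphan receptor, changed by -0.55 ± 0.06 in wild type and -0.43 ± 0.06 in null. The highest rise in the list was that of Nr1d1, at 2.04 ± 0.22 in wild type and 1.45 ± 0.22 in null.

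Of 15 genes of hormone synthesis and pituitary control, 1 rose and 3 fell in wild type, and 2 rose and 4 fell in null. Iyd, which recovers iodide, changed by -1.42 ± 0.16 in wild type and -0.91 ± 0.16 in null, and Hhex, a transcription factor of endoderm and blood, rose by 1.11 ± 0.18 and 1.09 ± 0.18. Pax8 changed by -0.37 ± 0.11 and -0.46 ± 0.11. Slc26a4, which in the ear is an anion exchanger of the endolymph, changed by -0.53 ± 0.16 in wild type and -0.51 ± 0.16 in null. Without the 4 arrays, which leaves 1 E18.5 null array, the null difference was -0.55 and was not called.

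Of 20 genes that textbooks give as responsive to the active hormone, 10 rose and 4 fell in wild type, and 7 rose and 4 fell in null, with medians of 0.39 and -0.06 beside -0.05 and -0.04 for all genes. Mbp, a myelin protein gene, rose by 1.69 ± 0.07 in wild type (adjusted p = 1.4e-10) and 1.41 ± 0.07 in null. Camk4, a neuronal kinase gene, rose by 2.07 ± 0.15 and 2.30 ± 0.15, and Sema7a, of axon guidance, by 1.02 ± 0.09 and 1.35 ± 0.09. Granule neuron and astrocyte markers rose over the same ages, with medians of 2.61 in wild type and 2.42 in null. Their part in the rises of Mbp, Camk4 and Sema7a was not tested. Aldh1a3, which encodes an enzyme of retinoic acid synthesis, changed by -1.64 ± 0.11 and -1.56 ± 0.11. Atp2a1, the calcium pump of fast muscle, was the one gene of the 5 lists whose change differed between the genotypes (-1.41 ± 0.24, adjusted p = 0.028). Skeletal muscle markers moved with it: 5 of 11 rose and 2 fell in wild type, and 2 rose and 8 fell in null, and their part was not tested. That call was lost in 14 alternatives, with differences from -1.24 to -1.50.

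**Figure D5:**
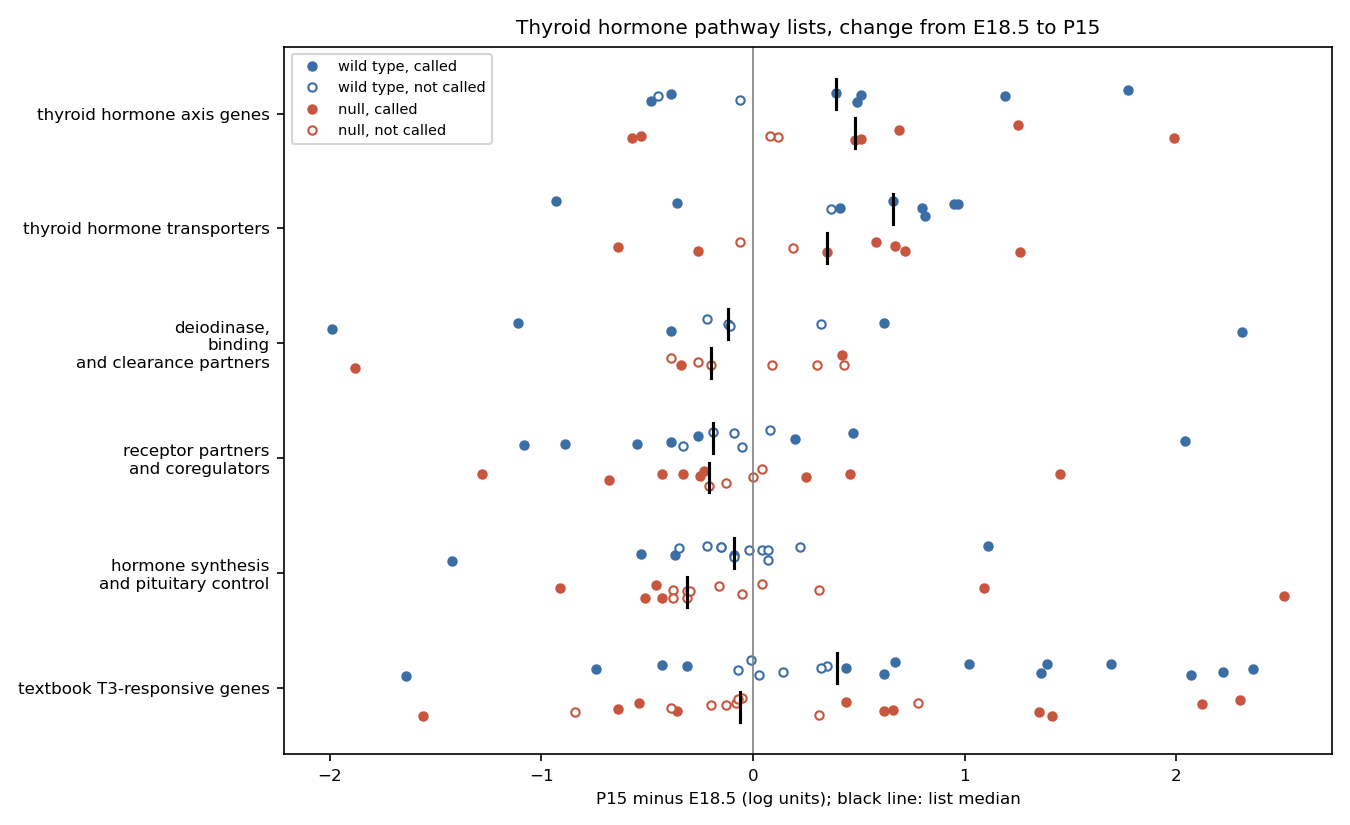
Each point is 1 gene's change from E18.5 to P15 (log units, horizontal axis) in wild type or null, by list (vertical axis); filled points were called and black lines are list medians. The transporters have medians of 0.66 in wild type and 0.35 in null, and each of the 5 lists of other pathway genes holds called genes on both sides of 0.

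From P15 to P90 the calls in these lists, of 9, 9, 13, 15 and 20 measured genes, stand beside 17.9% (wild type) and 13% (null) of all genes. In wild type 6 rose, the hormone-responsive genes Atp2a1 (0.57), Slc2a4 (0.49) and Srebf1 (0.37), Nr1d1 (0.76), Duoxa1 (0.46) and Nkx2-1 (0.42), and Slco1a5 (-0.43) and Tbl1x (-0.20) fell. None of these 8 was called without the 4 arrays, which leaves 1 P90 wild-type array: the differences were then 0.66, 0.52, 0.23, 0.96, 0.08, 0.26, -0.16 and -0.21 in the same order, with adjusted p from 0.098 to 0.79. With median scaling Atp2a1 (0.16), Slc2a4 (0.29), Srebf1 (0.18), Nr1d1 (0.41) and Slco1a5 (-0.28) were not called, and the call of Atp2a1 was lost without any 1 of the 6 arrays compared. In null Atp2a1, Slc2a4, Srebf1 and Nr1d1 rose by 1.17, 0.63, 0.32 and 1.05, Rasd2 by 0.42, Rxrg by 0.53 and Ttr by 2.48 ± 0.53 (adjusted p = 0.0066), and Tbl1x changed by -0.25. With median scaling Srebf1 was not called in null (0.21). In wild type Ttr had a called rise of 2.31 in the earlier interval, from E18.5 to P15. The difference between the genotypes in the change of Ttr was called in neither interval. Skeletal muscle markers moved over the same interval, with 6 of 11 higher at P90 in wild type and 9 of 11 in null, and their part in the rise of Atp2a1 was not tested. Between the genotypes 2 genes of the lists were called, both at P90 and both higher in null, beside 0.296% of all genes called at that age. Slco1a5 read 4.36 ± 0.16 in null and 3.58 ± 0.36 in wild type (SD, n = 3), a difference of 0.78 ± 0.13 (adjusted p = 0.021). Serpina7, which encodes thyroxine-binding globulin, read 2.67 ± 0.53 and 1.55 ± 0.23, with wild type below the dim guide, a difference of 1.12 ± 0.22 (adjusted p = 0.045). Without the 4 arrays, which leaves 1 P90 wild-type array, these differences were 0.51 and 0.96. With a sex score in the limma fit they were 0.75 (adjusted p = 0.89) and 1.42 (adjusted p = 0.73). With only the groups compared they were 0.78 (adjusted p = 0.46) and 1.12 (adjusted p = 0.42). Xist was higher in every P90 null array than in every P90 wild-type array. The part of sex in these 2 differences was not tested beyond that score.

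Across the 18 arrays Klf9 and Slco1c1 had nearly the same pattern (Pearson r = 0.98). With the 6 group means subtracted, r was -0.2. Klf9 and Hr correlated at 0.86, and at 0.53 after that subtraction. The genes most like Klf9 were Grm4 (r = 0.997), Ntm (0.996) and Syt12 (0.995), picked as the highest of all genes. For Slco1c1 they were Lin7a, En2 and C130030K03Rik, each at 0.99. For Hr they were Adar (0.981), Cbs (0.979) and Tecpr1 (0.976), and for Tg Gm5150 (0.909), St3gal2 (0.906) and Car1 (0.906). For Dio2 they were Dnase1 (0.908), Nupr1 (0.903) and Cp (0.895), and for Dio3 Mmut (0.849), Decr1 (0.843) and Fyco1 (0.837). For Thrb they were Zbtb39 (0.915), Dhx40 (0.907) and 3110053B16Rik (0.901), for Thra Fbxl17 (0.876) and for Tshr Ugp2 (0.856). After subtraction of the group means the gene most like Klf9 was Dusp1 (0.937), an early response phosphatase gene, followed by Spata2 (0.921) and Syt12 (0.91). These values describe 18 arrays that share ages and scaling, and carry no test.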

How the data were processed

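The authors deposited 1 log value for each of 28853 probe sets in each of 18 arrays. How these were summarised, and the log base, the sources used here do not give. Natural log is the likely unit of the deposited values, whose highest is 10.03. Array medians ran from 3.88 to 4.82, so the arrays were quantile normalised. That removes a difference in overall distribution, so changes are relative to the other genes. Platform annotation gave 21789 probe sets 1 symbol, 1621 several and 5443 none, and 21698 matched RefSeq (GRCm38.p6) by gene ID. The probe set with the highest mean stood for each of 19938 genes.

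One limma fit (3.58.1, R 4.3.3) over all 18 arrays, with a mean per group and 2.98 prior degrees of freedom, gave 9 contrasts with two-sided tests, Benjamini-Hochberg adjustment over all genes and a threshold of 0.05. It was tested on simulated data. A p-value here rests on the spread within groups, which the fit takes as 1 value per gene shared by all 6 groups. It is not the spread of the groups compared alone, and 3 arrays a group limit the precision. For Tg between genotypes at P90 the adjusted p was 0.038 in this fit and 0.35 with only the groups compared. For Tshr from E18.5 to P15 in wild type it moved the other way, from 0.079 to 0.0071. All 9 genes were named in every comparison. Of each other list, up to 4 called genes with the smallest adjusted p could be named, and for likeness the 3 genes with the highest r. Members, lists and marker genes were chosen with earlier results of these data known. Listed genes without a probe set of 1 symbol were not analysed here. Alternatives were other scalings, the mean of probe sets, leaving out genes below the 20th percentile, the replicate block, a sex score, a term for 4 arrays, another prior, only the groups compared, and each array left out. Leaving out the 4 arrays was added after seeing the data.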

Additional observations from a re-analysis of the deposited data

Results flagged for a closer look

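For Dio2 the null arrays lay on opposite sides of the wild-type arrays at E18.5 and P15, though neither difference was called. At E18.5 every null array lay below every wild-type array (-0.20 ± 0.13, adjusted p = 0.55, limma), and at P15 every null array lay above, by less than the second decimal for the nearest pair (0.10 ± 0.13, adjusted p = 0.96). The test of the difference between these, 0.30 ± 0.19, was not called (adjusted p = 0.68, limma).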

How the results depend on the processing

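Of 1359 values of the 9 genes under alternatives, 1300 were counted as unchanged, 36 lost a call, 19 gained one and 4 changed sign. A change of sign was not counted where the reported difference was within 1 standard error of 0 and neither fit called it. The 1300 therefore include differences near 0 that changed sign. An example is Hr between the genotypes at P90, at -0.12 and from -0.24 to 0.14 over the alternatives. Among called genes of the other lists, 1474 kept their direction and their call, 201 lost the call and 3 changed sign. The count of called genes among the 9 was 1 for the genotype difference at P90. It was 0 with median scaling (Tg -0.44, adjusted p = 0.14), as deposited (-0.30, 0.61), with the replicate block (-0.51, 0.065), the sex score (-0.39, 0.98), a term for the 4 arrays (-0.41, 0.41), a trended and robust prior (-0.51, 0.059), only the groups compared (-0.51, 0.35) and without the 4 arrays (-0.46, 0.5). With 1 array left out it ran from 0 to 2, with 2 (Tg and Dio2) without P90 null 3. Over all genes 59 were called, and 0 with the sex score, 10 with the term, 99 with the other prior, 6 with only the groups compared and 3 without the 4 arrays. For wild type P15 to P90 the count was 1, and 6 with median scaling, 4 as deposited, and 0 with the sex score (874 of all genes), the term (1022) or without the 4 arrays (416, against 3561). With 1 array left out it ran from 1 to 2, with 2 without P15 wild type 3 (Dio3 added) or P90 wild type 3 (Hr added). For null P15 to P90 it was 1, and 2 with median scaling, 3 as deposited (7761 of all genes against 2582), 2 with the term and 0 with dim genes left out, where Dio3 and Tshr were not among the 15950 tested. With 1 array left out it ran from 0 (without P15 null 3) to 2 (without P90 null 3, Tshr added). From E18.5 to P15 the count of 7 ran from 5 to 8 in wild type and from 5 to 7 in null over the alternatives. Thrb changed sign as deposited from P15 to P90, to 0.03 in wild type and 0.13 in null, as did Slco2b1, Rxrb and Hdac3 from E18.5 to P15 in null, at 0.06 each. Slco1c1 in null from P15 to P90 was -0.03 with median scaling, and the genotype difference in that change for Thra was 0.09 as deposited. As deposited, the median of all genes moved by 0.11, 0.20, 0.25 and 0.39 in the 4 changes with age and by 0.17 between genotypes at P90. Higher calls were 34.4% (wild type) and 47.1% (null) of all calls from E18.5 to P15 with median scaling. The cause of these changes was not tested. Deviations of same-numbered arrays of the genotypes correlated with r of -0.05, 0.05 and 0 (E18.5), 0.07, 0.24 and 0 (P15) and 0.15, -0.19 and -0.15 (P90). For arrays with different numbers r ran from -0.06 to 0.06, from -0.25 to 0.19 and from -0.32 to 0.42. With 3 arrays a group these values cannot settle whether the numbers pair the samples. The replicate block changed the count of calls among the 9 only for the genotype difference at P90.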
